A study of Mus musculus with 16 samples.

Results

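The effect of a high-fat diet (HFD) was followed in CD11b+ cells of wild-type (WT) and STAT6-/- mice, using the 8 arrays whose titles name either genotype, of 16 arrays in the series. For each genotype and each tissue, spleen or bone marrow, there was 1 array from mice on the control diet and 1 from mice on HFD for 3 months, so that 4 HFD arrays were set against 4 control arrays in 4 pairs. Each array held RNA from a pool of 5 mice, all labelled male, and the feeding was used as a murine model of atherosclerosis. The STAT6-/- mice carry a knockout of Stat6. Which part of the gene is removed, the strain, the age and the make-up of the diets are not given in the sources used here. Each genotype, tissue and diet has a single array, so the 4 pairs serve as the replicates of the diet comparison, and the spread between mice of a pool is not seen.

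CD11b is integrin alpha M, carried by neutrophils, monocytes and macrophages and by some eosinophils, dendritic cells and natural killer cells. STAT6 is the transcription factor that interleukin-4 and interleukin-13 activate through their receptors, and in macrophages it switches on the genes of alternative activation. Interferons act through receptors of their own and induce genes through interferon-stimulated response elements (ISRE) or gamma-activated sites in the promoters of antiviral and antigen-presentation genes. A high-fat diet raises blood lipids, and the sterol response of a cell is set by SREBP2, which induces cholesterol synthesis when sterols are low, and by LXR, which induces cholesterol efflux when they are high.

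Levels are given as log2 signal minus the 75th percentile of the same array, so that 0 marks a bright probe, and differences are HFD minus control on the log2 scale, where 1 is 2-fold. The median spot signal was between 74.0 and 183.9. The share of probes well above background was 59.9% to 82.4%, with the lowest shares on the STAT6-/- marrow arrays (68.7% control, 59.9% HFD) and on the WT spleen control array (70.3%). No spot was saturated. Itgam was at 3.79 or more and its partner chain Itgb2 at 4.47 or more on all 8 arrays, above background on each. All 3 probes of Stat6 were lower on the 4 STAT6-/- arrays than on the 4 WT arrays, by -1.68, -1.16 and -0.97 (exact two-sided permutation p = 0.0286 for each, the smallest this design allows), and remained above background on every array. The permutation ignored tissue, diet and pair. WT and STAT6-/- arrays sat on different slides, so genotype and slide cannot be told apart. Genes of other lineages were also read: the B cell list, for example, had 14 of 16 tested genes above background on all 8 arrays. On each of the 4 slides the control array took position 1 and the HFD array position 2, so diet and slide position cannot be told apart. Each slide carried both arrays of a pair, which keeps slide differences out of the pair differences.

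Did the diet move any gene in the same direction across genotypes and tissues? No feature passed the test over the 4 pairs (limma, moderated test with the pair as a block, Benjamini-Hochberg adjusted p under 0.05: 0 of 27872 features, 0%). In simulated data this test recovered 2% of added differences of 1 log2 unit and 58% of those of 2. The count of 0 thus says little about differences of about 2-fold. At an unadjusted p under 0.05, 792 features (2.84%) differed, 529 higher and 263 lower on HFD. The sign of the difference was higher in 4 of 4 pairs for 1266 features (4.54%) and lower in 4 of 4 for 1258 (4.51%). Many of the consistently higher features were dim: over the 18881 features above background on all 8 arrays, 457 (2.42%) were higher and 1046 (5.54%) were lower in every pair. The 4 HFD arrays lay wholly above the 4 control arrays for 29 features (0.104%) and wholly below for 13 (0.0466%). Only 3 features differed at least 2-fold in the same direction in each pair, namely Gm10636 (lower) and the unnamed probes A_52_P160554 and A_55_P2406758, all picked after their values were seen.

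The pairs ran in different directions over the whole array. Across the 27872 features, which share probes and scaling but no array between pairs, the differences of the WT and the STAT6-/- pair had a Pearson correlation of -0.14 in spleen and -0.179 in marrow. Over the 18881 features above background everywhere these values were -0.28 and -0.392. Pairs from different tissues had correlations between 0.018 and 0.07. The spread of differences was widest in the STAT6-/- marrow pair (SD 0.772) and the WT spleen pair (SD 0.713), which hold the arrays with the fewest probes above background, and narrower in the STAT6-/- spleen (SD 0.506) and WT marrow (SD 0.527) pairs. Restricted to features above background on both arrays of a pair, the SDs were alike, from 0.470 to 0.501, and the share of features at least 2-fold from the pair's median was 3.95% to 5.44%.

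**Figure D1:**
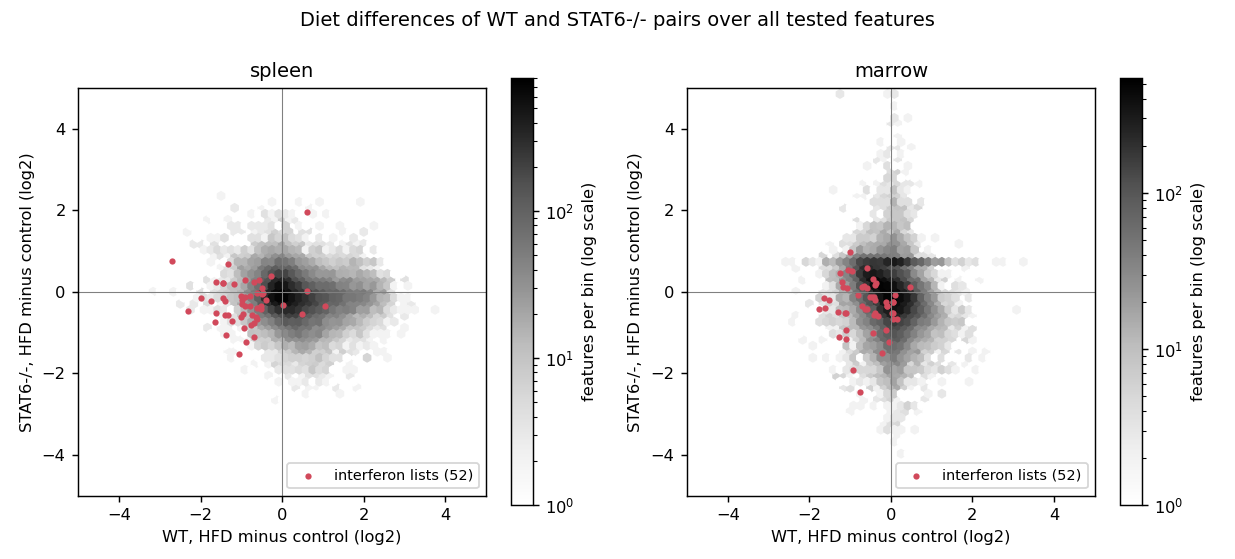
HFD minus control (log2) in the WT pair (horizontal axis) against the STAT6-/- pair (vertical axis) over all tested features, for spleen (left) and marrow (right). Grey bins show the number of features on a log scale and red points the 52 genes of the interferon lists, most of which lie left of 0 in WT. At most 13 features per panel fall outside the axes, and of the 2171 features in the streak of the marrow panel, 71.3% were above background on neither STAT6-/- array.

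Most interferon-induced genes on the lists used here were lower on HFD. These lists were chosen with earlier results of these data known, so the shares of all features beside them are for description only. Of 54 genes on a type I interferon list and an interferon-gamma list, 52 were tested, 49 had a lower mean on HFD, and 19 were lower in 4 of 4 pairs while 0 were higher in 4 of 4, beside 4.51% and 4.54% of all features. Their median difference was -0.515, against -0.008 over all features, of which 14321 (51.4%) had a lower mean. Without the WT spleen pair it was -0.344, against -0.063 over all features, and the medians relative to all features went from -0.474 to -0.247 for the type I list and from -0.655 to -0.376 for the interferon-gamma list. Of the 46 interferon genes above background on all 8 arrays, 17 were lower in every pair, beside 5.54% of all such features. A lower mean was found for 57.4% of all such features. No interferon gene passed the adjusted test, and 17 of the 52 had an unadjusted p under 0.05, all of them lower. Over all features 263 (0.944%) were lower at that threshold. The differences were largest in size in WT spleen. For the type I list, the median relative to all features was -0.993 in WT spleen, -0.226 in STAT6-/- spleen, -0.375 in WT marrow and -0.194 in STAT6-/- marrow. For the interferon-gamma list it was -1.152, -0.095, -0.678 and -0.333 in the same order. In WT spleen 27 of 28 type I genes and 21 of 24 interferon-gamma genes lay below the median of all features, and in STAT6-/- spleen 19 and 15 did. That median was 0.153 in the WT spleen pair and -0.111 in the STAT6-/- spleen pair. At least 2-fold below the median of all features were 14 genes of each list in WT spleen, where 2.52% of all features were, and 7 and 8 in WT marrow (2.6% of all features). In STAT6-/- spleen these counts were 3 and 0 (3.06%), and in STAT6-/- marrow 2 and 4 (8.5%). The shares of all features include many dim ones. Over features above background on both arrays of a pair, set against their own median, they were 2.09% in WT spleen and 1.84% in WT marrow. In STAT6-/- spleen and marrow they were 2.54% and 2.88%. Mx1 and Mx2 of the type I list had no probe with a usable name.

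Promoters of interferon-list genes that were lower in every pair are shown because the results on the diet turn on this group of genes. The core was searched as GAAANNGAAA on either strand, in 250 bases before to 50 after the gene start (RefSeq, GRCm38.p6). It occurred in 22 of the 37 interferon-list genes with a promoter in the table (59.5%) against 3.99% of 27025 genes, in 12 of 20 type I genes and in 10 of 17 interferon-gamma genes. The share was 8 of 15 (53.3%) among genes lower in every pair and 14 of 22 (63.6%) among the other tested ones. A match is a run of letters and not a bound site. The 250 bases before the start of 4 genes follow, 5′ to 3′ in the direction of the gene, with the matches in capitals.
Gbp2 promoter (chr3:142620413-142620662, plus strand): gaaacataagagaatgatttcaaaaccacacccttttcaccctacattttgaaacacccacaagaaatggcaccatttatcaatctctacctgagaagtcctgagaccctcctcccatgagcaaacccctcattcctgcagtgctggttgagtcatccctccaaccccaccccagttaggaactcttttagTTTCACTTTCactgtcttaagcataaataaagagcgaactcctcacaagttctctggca
Gbp5 promoter (chr3:142496684-142496933, plus strand): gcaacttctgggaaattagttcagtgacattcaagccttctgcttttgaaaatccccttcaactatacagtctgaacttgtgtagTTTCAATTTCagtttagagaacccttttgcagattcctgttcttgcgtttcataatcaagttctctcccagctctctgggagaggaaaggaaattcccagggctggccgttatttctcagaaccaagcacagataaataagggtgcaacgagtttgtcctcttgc
Ifit3 promoter (chr19:34583279-34583528, plus strand): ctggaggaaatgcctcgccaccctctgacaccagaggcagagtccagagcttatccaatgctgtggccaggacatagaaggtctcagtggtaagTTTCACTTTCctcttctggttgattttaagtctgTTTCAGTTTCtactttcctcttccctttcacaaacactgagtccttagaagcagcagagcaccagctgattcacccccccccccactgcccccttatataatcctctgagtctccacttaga
Rsad2 promoter (chr12:26456453-26456702, minus strand): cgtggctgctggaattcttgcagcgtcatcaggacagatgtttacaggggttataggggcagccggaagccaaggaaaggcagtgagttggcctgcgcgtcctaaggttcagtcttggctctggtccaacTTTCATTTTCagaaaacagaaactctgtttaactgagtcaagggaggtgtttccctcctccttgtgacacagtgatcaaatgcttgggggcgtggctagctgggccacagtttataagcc
In these promoters the core lies on the strand opposite to the gene and starts 59 bases before the start in Gbp2, 165 in Gbp5, 120 in Rsad2, and 156 and 122 in Ifit3. The windows of Cxcl9 and Oasl2, which were also lower in every pair, held no match.

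Gbp2, an interferon-induced GTPase of the guanylate-binding family, had the smallest p of the listed interferon genes. Its level was 6.17 on the WT spleen control array and 4.53 on HFD, 2.98 and 2.23 in STAT6-/- spleen, 4.62 and 3.52 in WT marrow, and 1.84 and 0.69 in STAT6-/- marrow. Within each pair the HFD array was the lower one, but the groups overlap because WT lies above STAT6-/- on either diet. The mean difference was -1.16 (SE 0.21, n = 4 pairs; limma adjusted p = 1). Its close relative Gbp2b, which is similar enough in sequence that its probes may share signal with it, ran from 4.89 to 3.00 and from 1.49 to 0.62 in WT and STAT6-/- spleen, and from 3.06 to 1.54 and from 0.15 to -0.57 in marrow (mean difference -1.25, SE 0.26). Gbp5 and Gbp7 of the same family were lower in every pair as well, by -1.30 (SE 0.38) and -0.76 (SE 0.27).

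Cxcl9, a chemokine that draws T cells through CXCR3, was also lower on HFD in each pair. In spleen it went from 1.59 to 0.21 in WT and from -0.30 to -1.35 in STAT6-/-, and in marrow from -2.99 to -4.12 in WT and from -5.50 to -6.03 in STAT6-/-. Spleen exceeded marrow throughout, and the HFD array was the lower of each pair (mean -1.02, SE 0.21; limma adjusted p = 1). The STAT6-/- marrow HFD array was not above background for Cxcl9 or for Gbp5. Its second probe gave -0.59.

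Among type I genes, Oasl2, an oligoadenylate synthetase-like antiviral protein, went from 4.91 to 3.96 in WT spleen, 1.57 to 0.69 in STAT6-/- spleen, 3.87 to 2.76 in WT marrow and 0.38 to -0.13 in STAT6-/- marrow. The WT arrays stood above the STAT6-/- arrays whatever the diet, and every HFD array stood below its own control (mean -0.86, SE 0.19; limma adjusted p = 1). Rsad2, which encodes the antiviral enzyme viperin, went from 4.34 to 3.28 and from 2.71 to 1.18 in spleen (WT, then STAT6-/-) and from 2.67 to 2.46 and from 2.01 to 0.50 in marrow. Its smallest difference was in WT marrow, unlike Oasl2, whose smallest was in STAT6-/- marrow. Mean differences were -1.08 (SE 0.27) for Rsad2, -0.85 (SE 0.26) for Ifit3, an interferon-induced antiviral protein, and -0.75 (SE 0.23) for Usp18, which removes the ubiquitin-like modifier ISG15 and dampens type I receptor signalling.

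The GTPases Igtp and Irgm1, which act on vacuoles that hold microbes, were lower in 4 of 4 pairs by -0.92 (SE 0.23) and -0.67 (SE 0.26). Iigp1 of the same family was lower by -0.94 (SE 0.36), and Cd274, the checkpoint ligand PD-L1, by -0.81 (SE 0.22). The other 7 genes lower in 4 of 4 pairs were Herc6, Ifi27l2a, Ifit1, Irf1, Oasl1, Rtp4 and Tap1, with mean differences from -0.64 to -0.23. The 3 genes with a higher mean were Nos2, which makes nitric oxide (0.64, SE 0.40), Ciita, the class II transactivator (0.11, SE 0.21), and Oas1a (0.12, SE 0.29), which was not above background on any WT array.

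**Figure D2:**
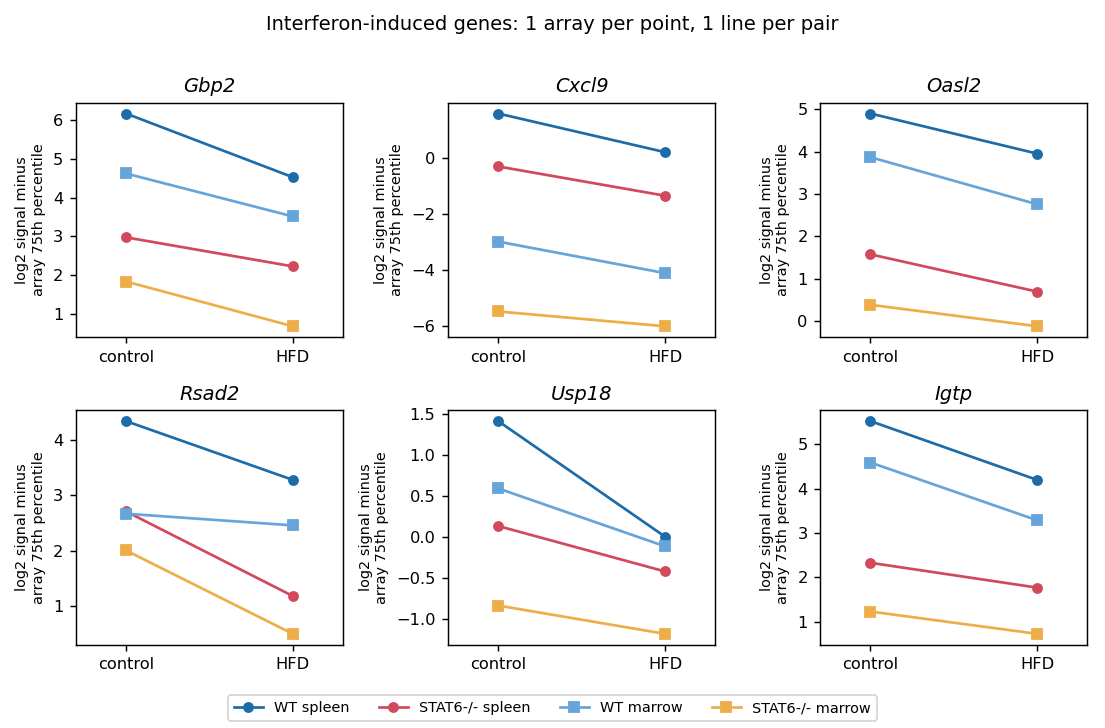
Level (log2 signal minus the 75th percentile of the array) of 6 interferon-induced genes on the control and HFD array of each pair, with 1 point per array and 1 line per pair. Every HFD point lies below the control point of its pair, as at 6.17 and 4.53 for Gbp2 in WT spleen, and WT lines lie above the STAT6-/- line of the same tissue.

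Levels of the interferon genes also differed by genotype on the control diet, although WT and STAT6-/- arrays sat on different slides and genotype cannot be told apart from slide. The mean level of the type I list was 2.03 on the WT spleen control array and 1.05 on the STAT6-/- one, and 1.22 and 0.67 on HFD. In marrow it was 1.44 and 0.83 on the control diet and 0.91 and 0.57 on HFD. Oas1a was not above background on the WT arrays (-7.93 to -6.60) and bright on the STAT6-/- arrays (2.78 to 3.68). The strains are not given in the sources used here, and a difference in sequence under this probe was not tested. Lists of cells that make or answer interferon ran partly alongside: the natural killer cell list had relative medians of -0.404, 0.372, -0.478 and 0.194 in WT spleen, STAT6-/- spleen, WT marrow and STAT6-/- marrow, with 17 of 18 genes above background on all arrays and mean levels of -3.05 to 1.41 on control and -3.02 to 1.20 on HFD arrays. Plasmacytoid dendritic cell genes had relative medians of -0.114, 0.310, -0.070 and -0.331 with 15 of 15 genes above background on all arrays (mean levels -0.20 to 0.95 on control and -0.49 to 1.01 on HFD arrays), and nonclassical monocyte genes -0.582, 0.549, -0.055 and -0.159, again with 15 of 15 (-0.13 to 1.09 and -0.08 to 1.14). The classical monocyte list had relative medians of -0.689, 0.135, -0.091 and -0.108, with 14 of 14 genes above background on all arrays (3.70 to 4.55 and 3.55 to 4.42). In WT spleen 11 of these 14 genes lay below the median of all features. At least 2-fold below it were 6 of them, where 2.52% of all features were. The basophil and mast cell list had -0.776, 0.255, -0.341 and -0.337, with 12 of 15 genes above background on all arrays (-1.81 to -0.82 and -2.12 to -1.36), and 7 of the 15 genes were at least 2-fold below in WT spleen. Their part in the interferon result was not tested. In bulk RNA, fewer cells of a type and less RNA per cell cannot be told apart.

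Outside the interferon lists, the genes with the smallest p among those lower in every pair were Prm1, Hsph1, Lce3b, Bmp4, Adamdec1, Rbfox3, Pdpn and H2bc21. Hsph1, a cytosolic co-chaperone of HSP70, went from 2.90 to 1.79 in WT spleen, 3.29 to 1.96 in STAT6-/- spleen, -0.22 to -0.94 in WT marrow and -0.81 to -1.54 in STAT6-/- marrow. Spleen exceeded marrow on either diet, and the 4 pair differences were close to each other (mean -0.98, SE 0.20; limma adjusted p = 1). Adamdec1, a metalloprotease-like gene of tissue macrophages, differed by -1.20 (SE 0.28), and the growth factor Bmp4 by -0.79 (SE 0.18). Pdpn, the membrane glycoprotein podoplanin, differed by -0.74 (SE 0.18) and the histone gene H2bc21 by -0.73 (SE 0.18). Prm1, which packs DNA in sperm, was dim (-3.75 at most) and above background on 2 of 4 HFD arrays, so its difference of -1.38 (SE 0.23) counts background values, and it was -0.41 with the normexp background. The second probe of the neuronal splicing factor Rbfox3 went the other way (0.34 against -1.01). All adjusted p were 1.

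On the higher side the smallest p belonged to Mr1, Cmtm8, 1810010H24Rik, Pls3, Nfib, Pla2g2d, Rnf182, Mrs2, Etl4, 4933412O06Rik, Dpysl4 and Dysf. Mr1, which presents vitamin B metabolites of microbes to T cells, went from -2.95 to -2.06 and from -3.28 to -2.32 in WT and STAT6-/- spleen, and from -4.88 to -4.53 and from -5.82 to -4.93 in marrow (mean 0.77, SE 0.20; limma adjusted p = 1). The STAT6-/- marrow control array was not above background for Mr1 or for Dysf. Each HFD array was higher than its partner, by the least in WT marrow. Pla2g2d, a secreted phospholipase A2, was higher by 0.65 (SE 0.21), Pls3, an actin-bundling plastin, by 0.70 (SE 0.20), the mitochondrial magnesium channel gene Mrs2 by 0.66 (SE 0.21), and Dysf, which serves membrane repair, by 1.06 (SE 0.36). The normexp background gave 0.45 for Mr1 and 0.59 for Dysf. For 1810010H24Rik and Rnf182 the 4 HFD arrays lay above all 4 control arrays, at levels of -5.42 to -4.80 against -6.64 to -5.51 for the former. The latter, a ubiquitin ligase gene, was above background on 1 control array and on all 4 HFD arrays. With the normexp background their mean differences went from 0.77 to 0.29 and from 1.42 to 0.26.

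**Figure D3:**
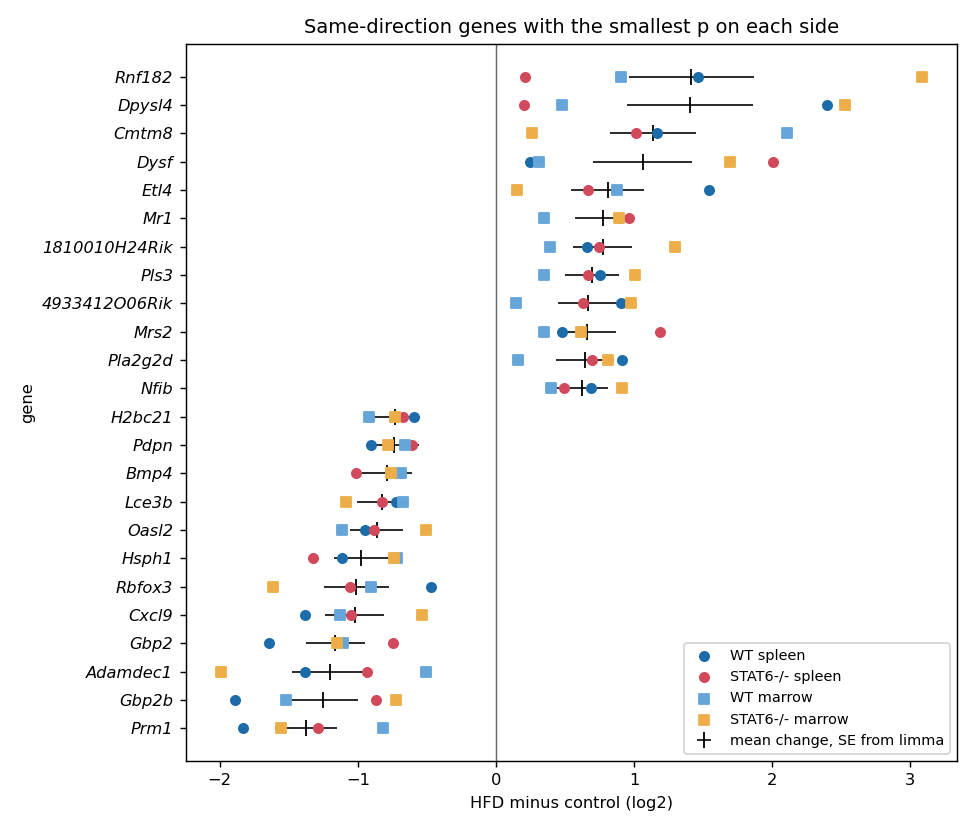
HFD minus control (log2) in each of the 4 pairs for the 12 genes per side with the smallest p among those of the same direction in every pair. The black mark is the limma mean with its SE, from -1.38 for Prm1 to 1.42 for Rnf182, although Prm1 was above background on 2 of 4 HFD arrays and Rnf182 on 1 of 4 control arrays.

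Immediate early and chaperone genes were mostly lower on HFD, by little. Of all features above background on all 8 arrays, 57.4% had a lower mean and 5.54% were lower in every pair. In the immediate early list 21 of 23 genes had a lower mean and 7 were lower in every pair, with a median relative to all features of -0.20, and 0 had an unadjusted p under 0.05. That median was -0.095 with quantile normalization, -0.084 with normexp and -0.066 without the WT spleen pair. Fosl2, an AP-1 subunit, differed by -0.42 (SE 0.20), and Btg2, which restrains proliferation, by -0.33 (SE 0.20). Of 15 heat shock chaperone genes 14 were lower in mean and 4 in every pair, among them Dnaja1 at -0.42 (SE 0.19) and Hspa8 at -0.30 (SE 0.18). Their list median was lower than that of all features in WT spleen (-0.490), STAT6-/- spleen (-0.266) and WT marrow (-0.479), and higher in STAT6-/- marrow (0.127). Antioxidant NRF2 target genes were split, 9 higher and 7 lower in mean, and of 18 endoplasmic reticulum stress genes 14 were lower in mean and 3 in every pair. Glycolysis genes were lower in mean in 22 of 25 cases and in every pair in 6, at -0.20 (SE 0.17) for Pkm and -0.21 (SE 0.17) for Eno1, differences near the median SE of 0.237 over all features. With quantile normalization the relative median went from -0.291 to -0.167 for the chaperones and from -0.146 to -0.034 for glycolysis.

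Inflammatory cytokine genes varied. Il1a, which encodes interleukin-1 alpha, went from -1.69 to -3.18 in WT spleen, from -1.49 to -3.01 in STAT6-/- spleen, from -3.33 to -3.40 in WT marrow and from -1.77 to -3.14 in STAT6-/- marrow. It was lower by more than 2-fold in 3 pairs and hardly moved in WT marrow (mean -1.11, SE 0.30; limma adjusted p = 1). Il1b, at 5.65 to 6.50 on all arrays, was lower in every pair by a mean of only -0.31 (SE 0.18). Over the inflammatory list 16 of 19 genes had a lower mean and 2 were lower in 4 of 4 pairs. These shares were 57.4% and 5.54% over all features above background on all 8 arrays. The chemokine and scavenger receptor for oxidised lipids Cxcl16 was lower in every pair by -0.51 (SE 0.19), and Il4, the cytokine upstream of STAT6, by -0.90 (SE 0.23), from 0.02 to -1.48 in WT spleen and from -0.15 to -1.0 in STAT6-/- spleen, and from -2.37 to -2.95 and from -0.53 to -1.17 in marrow.

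Lipid genes did not move together. Of 26 cholesterol synthesis genes 16 were higher and 10 lower in mean, none had the same sign in every pair, and the relative median was 0.03. The reading varied by pair, at -0.280 in WT spleen, 0.023 in STAT6-/- spleen, 0.085 in WT marrow and 0.430 in STAT6-/- marrow. The sterol regulatory element TCACCCCAC, searched on either strand, was in 1 of 18 promoters of the list (5.56%) against 0.614% of all genes. Of 16 cholesterol efflux and LXR target genes 11 were higher in mean and 0 in every pair. The transporter Abca1 was higher in 3 pairs (0.57, 0.75 and 0.49) and lower in STAT6-/- marrow (-0.29). Scd2, a fatty acid desaturase, was higher in every pair by 0.60 (SE 0.22), most in WT spleen (0.86) and WT marrow (0.84) and least in STAT6-/- spleen (0.04). Acadl, which serves fatty acid oxidation in mitochondria, was higher in every pair by 0.34 (SE 0.19), and Plin2, the lipid droplet coat protein, was lower in every pair by -0.23 (SE 0.18). The oxidation list as a whole had 19 of 30 genes higher in mean.

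Neutrophil genes differed little. The counts below stand beside 57.4% lower in mean and 5.54% lower in every pair, over all features above background on all 8 arrays. Of 18 mature neutrophil genes 16 had a lower mean and 5 were lower in every pair, but the relative median of the list was -0.133 as scaled here and 0.028 with quantile normalization. Clec4d, a lectin receptor of neutrophils, differed by -0.47 (SE 0.19). Secondary granule genes were lower in mean in 11 of 13 cases, with Lcn2 at -0.40 (SE 0.21) and at -0.17 with normexp. The relative median of that list was -0.082 as scaled here and -0.012 with quantile normalization. Primary granule genes, which mark immature neutrophils, split by pair. Their relative median was 0.529 in WT spleen and 0.469 in STAT6-/- marrow but -0.538 in STAT6-/- spleen and -0.361 in WT marrow. Mpo, for example, differed by 0.77, 0.61, -0.55 and -0.63 in that order. Cell cycle genes followed the same signs, at 0.143, 0.453, -0.474 and -0.253. Ribosomal protein genes were lower in 27 of 29 cases and oxidative phosphorylation genes in 26 of 31, with 1 and 0 lower in every pair, and with quantile normalization the relative medians of these lists changed sign, from -0.140 to 0.027 and from -0.054 to 0.008.

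B cell genes lay below all features in the marrow pairs and above them in the spleen pairs, a difference that was not tested. The list had relative medians of 0.071 and 0.633 in WT and STAT6-/- spleen and of -0.603 and -0.445 in marrow. Cd79b, the signalling chain of the B cell receptor, differed by 0.34 and 0.17 in spleen and by -1.15 and -0.30 in marrow. Genes of B cell precursors were lower in marrow, at -0.789 and -0.905, and mixed in spleen (0.236 and -0.375). Vpreb1, part of the surrogate light chain, differed by -0.81 in WT and -1.07 in STAT6-/- marrow. Jchain, which joins antibody subunits in plasma cells, was lower in every pair by -0.57 (SE 0.18). Class II genes H2-Ab1 and H2-Eb1 were lower in 4 of 4 pairs by -0.69 (SE 0.22) and -0.52 (SE 0.21), although the class II list as a whole was higher than all features in STAT6-/- spleen (0.417) and lower in the other pairs (-0.440 to -0.375).

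Did the diet act differently in the 2 genotypes? The difference between the STAT6-/- and the WT diet effect passed the adjusted test for 0 of 27872 features (0%; limma, smallest adjusted p = 0.712), and 1670 (5.99%) had an unadjusted p under 0.05. In simulated data this test recovered none of the added differences of any size tried, so the count of 0 does not answer the question. Within WT alone 0 features passed (1149 at unadjusted p under 0.05, 4.12%), and within STAT6-/- alone 0 passed (1229, 4.41%). Simulated differences were recovered in part within WT and not within STAT6-/-, in a single draw per test that does not rank the tests. The smallest p on the side where STAT6-/- exceeded WT belonged to Ifnb1, Ccl24, Wfdc17, Wfdc18 and Itga9, and on the other side to Vmn2r73, 4932412D23Rik, Sval2, Ermap and Actl6b.

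Ccl24, an eosinophil-attracting chemokine that interleukin-4 induces in macrophages, was -0.22 on the WT spleen control array and -1.83 on HFD, and -2.88 and -3.07 in WT marrow. On the STAT6-/- arrays it went from -5.09 to -1.15 in spleen and from -7.46 to -4.10 in marrow. The STAT6-/- control array was the lowest of its tissue in spleen and in marrow, and the difference between the genotypes' diet effects was 4.55 (SE 0.59; limma adjusted p = 0.712) and 2.75 with the normexp background. The STAT6-/- marrow control array was not above background for it. Wfdc17, a secreted inhibitor of the whey acidic protein family made by activated macrophages, went from 5.32 to 3.72 in WT spleen and from 4.78 to 3.06 in WT marrow, but from 4.60 to 5.42 and from 4.07 to 5.25 on the STAT6-/- arrays. Here the genotypes crossed: WT was higher on control and STAT6-/- higher on HFD in either tissue (2.67, SE 0.38; adjusted p = 0.712). Its neighbour in the family, Wfdc18, did the same, with 2.76 (SE 0.47).

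Ifnb1, which encodes interferon beta, was dim (-6.04 to -2.12), and not above background on the STAT6-/- marrow control array. It went from -2.12 to -3.64 and from -3.99 to -5.22 in WT spleen and marrow, and from -4.72 to -2.81 and from -6.04 to -3.92 in STAT6-/-. It was lower on HFD in the WT pairs and higher in the STAT6-/- pairs (3.39, SE 0.38, limma adjusted p = 0.712, and 1.96 with the normexp background). The interferon-induced genes picked above for being lower in 4 of 4 pairs are lower in both genotypes by that choice. In STAT6-/- spleen 19 of 28 type I genes and 15 of 24 interferon-gamma genes lay below the median of all features. Ermap, an erythroid membrane gene, was higher in the WT pairs (0.28 and 0.77) and lower in the STAT6-/- pairs (-1.52 and -2.08). Its other probes went apart, from -0.64 to 0.44 in the mean difference, as did those of 4932412D23Rik.

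**Figure D4:**
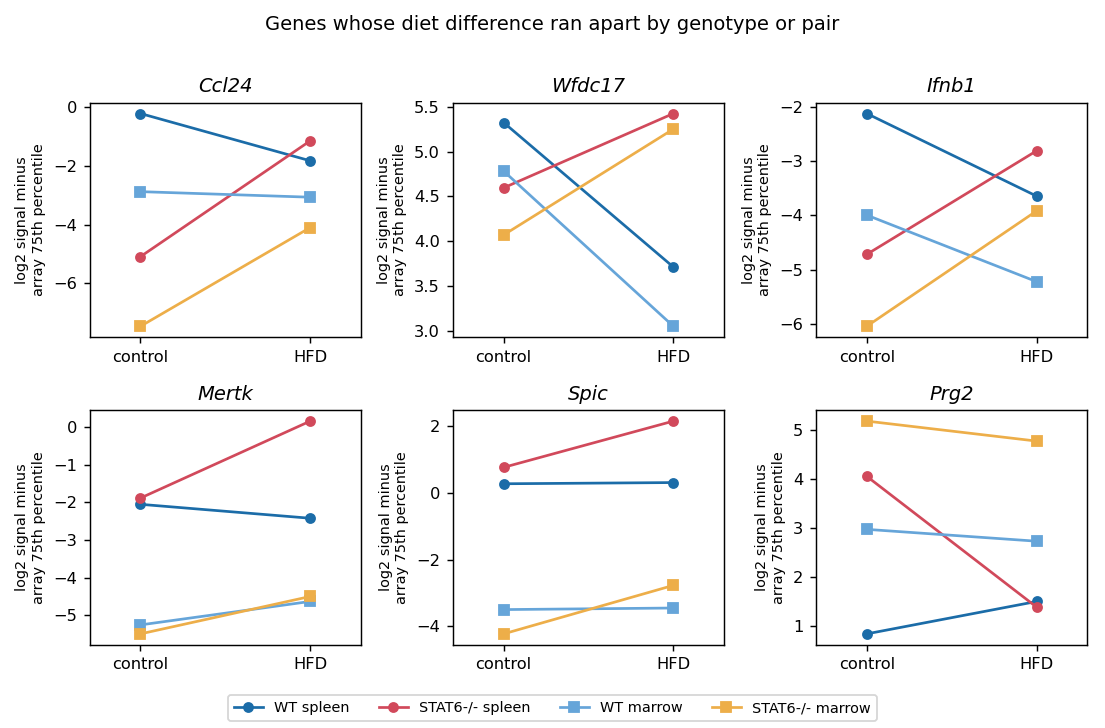
Level (log2 signal minus the 75th percentile of the array) on the control and HFD array of each pair for 6 genes. The HFD point is below control in the WT pairs and above it in the STAT6-/- pairs for Ccl24, Wfdc17 and Ifnb1, and Prg2 stands at 4.06 and 1.40 in STAT6-/- spleen.

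Macrophage genes of the splenic red pulp were higher on HFD in STAT6-/- spleen. The list had a relative median of 1.354 there, of -0.542 in WT spleen, 0.295 in WT marrow and 0.396 in STAT6-/- marrow, with 21 of 22 tested genes above background on all arrays and mean levels of -0.56 to 1.25 on control and -0.17 to 2.23 on HFD arrays. At least 2-fold above the median of all features were 14 of the 22 genes in STAT6-/- spleen (2.66% of all features), 4 in STAT6-/- marrow (3.76%), 1 in WT marrow (2.84%) and 0 in WT spleen (11.6%). Over features above background on both arrays of a pair, set against their own median, these shares were 2.18%, 1.57%, 2.11% and 3.35%. Spic, the transcription factor of red pulp macrophages, went from 0.77 to 2.16 there and from 0.28 to 0.31 in WT spleen, and in marrow from -4.23 to -2.77 in STAT6-/- and from -3.50 to -3.45 in WT. It was higher in each STAT6-/- pair and level in each WT pair, and the difference between the genotypes' diet effects was 1.38 (limma adjusted p = 0.712). Mertk, a receptor for engulfing dead cells, differed by 2.04 in STAT6-/- spleen, 0.99 in STAT6-/- marrow, 0.62 in WT marrow and -0.37 in WT spleen. The haemoglobin scavenger receptor Cd163 differed by 1.83 in STAT6-/- spleen and by 0.14 and -0.10 in the WT pairs, and was above background on neither STAT6-/- marrow array. Nr1h3, which encodes LXR alpha, differed by 1.59 and 0.77 against -0.86 and -0.61. Mrc1, the mannose receptor used as a mark of alternative activation, was higher in 4 of 4 pairs by 0.86 (SE 0.29; limma adjusted p = 1), from 1.23 to 2.93 in STAT6-/- spleen but only from 0.67 to 0.68 in WT spleen. In marrow it went from -1.96 to -1.11 in WT and from -1.78 to -0.92 in STAT6-/-. Arg1, another such mark, was above background on 0 of 4 control arrays and 2 of 4 HFD arrays. Over the IL-4 list 9 genes were higher and 10 lower in mean.

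Eosinophil granule genes were lower on HFD in STAT6-/- spleen. Prg2, the major basic protein, went from 4.06 to 1.40 there, from 0.85 to 1.51 in WT spleen, from 2.98 to 2.74 in WT marrow and from 5.19 to 4.78 in STAT6-/- marrow. The STAT6-/- spleen pair alone differed by more than 2-fold. Epx, the eosinophil peroxidase, differed by -2.56 in that pair, and Prg3 and Ear6, further granule proteins, by -2.84 and -2.21. The list's relative median was -1.546 in STAT6-/- spleen, -0.429 in STAT6-/- marrow, -0.112 in WT spleen and -0.106 in WT marrow, all 13 genes were above background on all arrays with mean levels of -0.40 to 2.08 on control and -0.51 to 1.57 on HFD arrays, and 13 of 13 had a lower mean on HFD. A lower mean was also found for 57.4% of features above background on all 8 arrays. Siglecf, the surface receptor that defines mouse eosinophils, was lower in every pair by -0.55 (SE 0.24), and by -1.20 in STAT6-/- spleen. There 8 of the 13 genes were at least 2-fold below the median of all features, where 3.06% of all features were.

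The erythroid list had a relative median of 0.740 in WT spleen, -0.423 in STAT6-/- spleen, -0.444 in WT marrow and -0.061 in STAT6-/- marrow. Alas2, the first enzyme of haem synthesis in red cells, differed by 1.42 in WT spleen, -1.19 in STAT6-/- spleen, -1.57 in WT marrow and 0.33 in STAT6-/- marrow. Mean levels of the 21 genes were -1.33 to 1.92 on control and -1.84 to 1.36 on HFD arrays, with 20 genes above background on all arrays. Genes of pancreatic acinar cells, whose organ lies beside the spleen, were dim, with 7 of 14 above background on all arrays, and had relative medians of 0.894 in WT spleen and -0.568 in STAT6-/- spleen. Features above background on neither array of the pair had a median difference of 0.994 in WT spleen and -0.049 in STAT6-/- spleen. The part of this background shift in the acinar values was not tested. The part of these cell types in other differences of the same pairs was not tested.

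**Figure D5:**
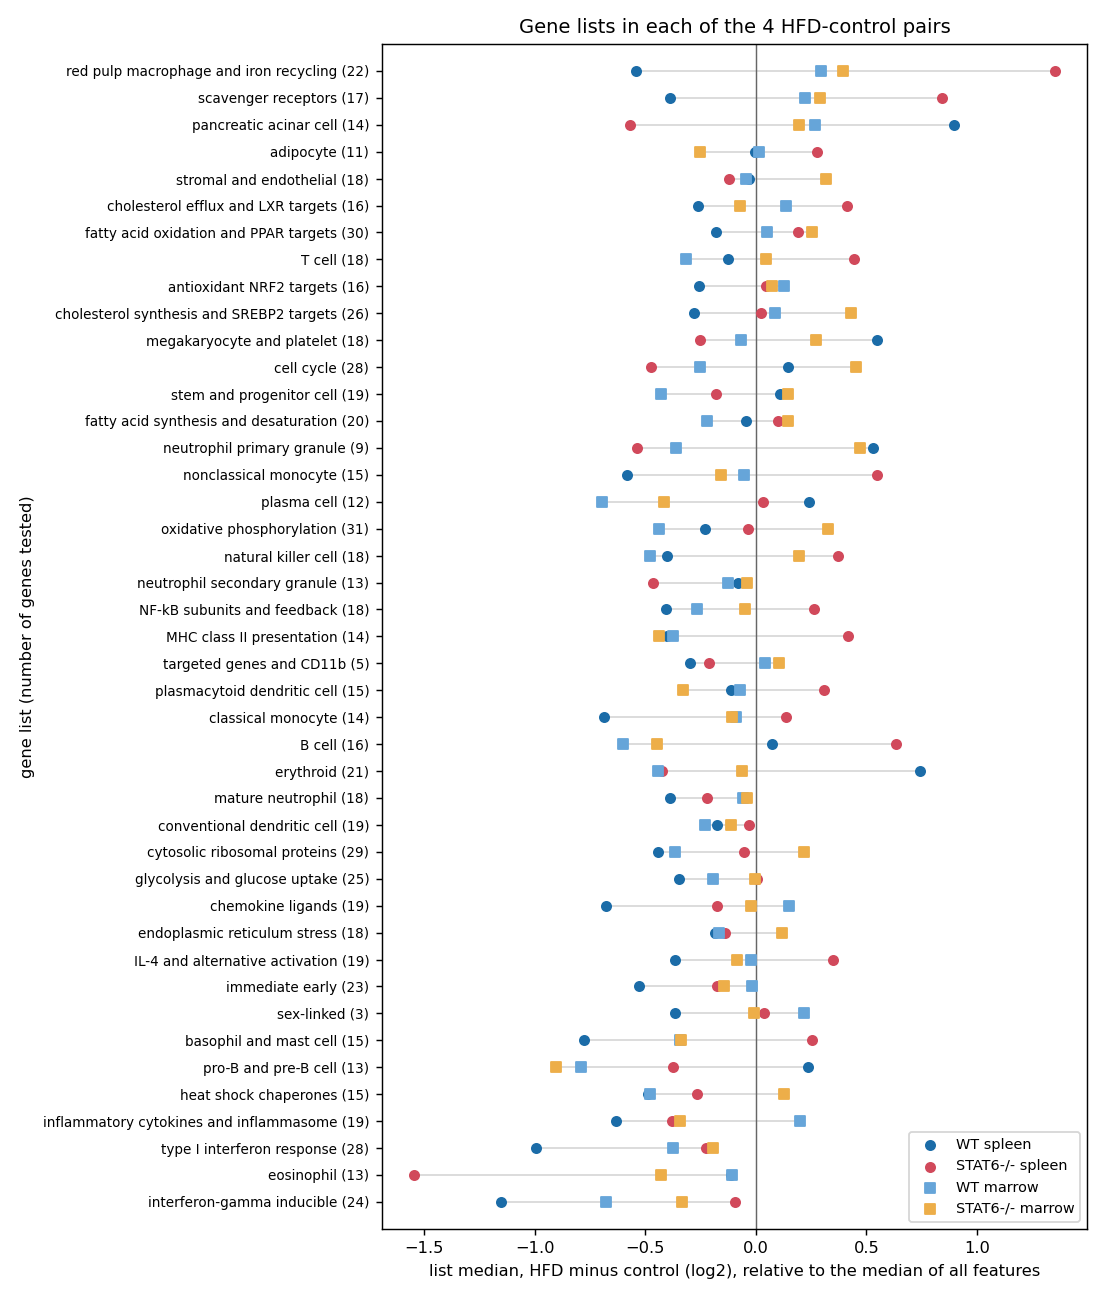
Median HFD minus control (log2) of each of 43 gene lists relative to the median of all features, in each pair (4 points per line, circles for spleen and squares for marrow). The 2 interferon lists lie below 0 in all 4 pairs, while the red pulp macrophage list runs from -0.542 in WT spleen to 1.354 in STAT6-/- spleen.

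Did the diet act differently in spleen and marrow? In spleen 0 features passed the adjusted limma test (0%) and 516 (1.85%) had an unadjusted p under 0.05, in marrow 0 and 529 (1.9%), and for the difference between tissues 0 and 435 (1.56%). None of these 3 tests recovered any difference added to simulated data, so the counts of 0 do not answer the question. In spleen the smallest p on the lower side belonged to Samd11 (-2.02, SE 0.42), whose level went from -2.40 to -4.88 in WT and from 0.04 to -1.53 in STAT6-/-, and which was lower in WT marrow (-4.72 to -5.28) and higher in STAT6-/- marrow (-4.72 to -4.33). Akap7, a kinase anchor, followed at -2.51 (SE 0.52), with a second probe that did not move (0.05 in the mean over 4 pairs against -1.61). On the higher side the list was led by 9130019P16Rik, Olfr1013 and Cntnap4, which were above background on neither spleen control array. 9130019P16Rik was at least 2.07-fold higher in HFD spleen, setting the control arrays at the lowest signal that counts as above background. That size depends on the background correction, since normexp gave a difference of 0.48. Its levels were -9.19 and -6.21 in WT spleen and -9.24 and -5.72 in STAT6-/- spleen.

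In marrow the smallest p belonged to dim genes: Olfr728 and Vmn1r211, genes of olfactory and vomeronasal receptors. Each was above background on both control arrays and on neither HFD array. With the HFD arrays set at the lowest signal that counts as above background, they were at least 2.39-fold and at least 2.37-fold lower. Those sizes depend on the background correction, since normexp gave differences of -0.85 and -0.68. Zfp354c, a zinc finger gene, was lower in marrow (-5.79 to -7.91 in WT, -5.84 to -7.59 in STAT6-/-) and higher in spleen (-3.17 to -2.61 and -3.91 to -3.25), and was above background on neither marrow HFD array, which makes it at least 1.13-fold lower there. It had the smallest p for the difference between tissues (limma adjusted p = 1), a value that counts these background levels. The adhesion gene Nectin4 had the smallest p on the higher side in marrow. It went from -5.72 to -2.20 there and from -6.86 to -5.89 in WT, whose control array was not above background (mean 2.25, SE 0.66), so that the STAT6-/- pair made most of it.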

How the data were processed

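RNA of CD11b+ cells was read on 1-colour Cy3 Agilent arrays of 44397 spots. The authors extracted spot intensities with Agilent Feature Extraction 11.0.1.1, per the file headers, and deposited a background-subtracted intensity for each spot without scaling between arrays. Here outlying spots were left out (235 probes), spots of a probe averaged, log2 values set against the array's 75th percentile, and each gene read from its brightest probe if well above background on at least 2 of 8 arrays. RefSeq accessions named 27234 of 39429 probes (69.1%). The probe design predates the build of the symbol table, so no probe coordinates are given.

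Groups come from the labels. Two-sided moderated tests were run with limma 3.58.1 under R 4.3.3, with a term for each pair and for diet (3 residual degrees of freedom), or diet within each tissue or genotype (2), and Benjamini-Hochberg adjustment over 27872 features at 0.05. The pair is genotype and tissue, and equals the slide. No pair has a repeat array, and the labels do not say whether spleen and marrow pools came from the same mice. The number of arrays limits the precision. The tests were tried on simulated data with 50 genes changed at each size. The test over 4 pairs recovered 2% of added log2 differences of 1, 58% of 2, 82% of 3 and 88% of 4. Within WT these shares were 0%, 2%, 42% and 52%. The tests in spleen, in marrow, in STAT6-/- and between tissues or genotypes recovered none. A count of 0 from these says nothing about the diet. Each share comes from a single simulated draw. The tests within WT and within STAT6-/- have the same residual degrees of freedom and median SE (0.315), so these shares do not rank them. The members and the 43 lists were chosen with earlier results of these data known. Named genes were, over 4 pairs, the 12 per side with the smallest p among genes of 1 direction and above background on all arrays of a diet, 8 per side within a tissue, 5 per side for differences between tissues or genotypes, and up to 4 list members per side with the same direction in every pair. Other list members were named after their values were seen. Alternatives covered scaling, background correction (normexp, offset 50, on median spot signals, since the files hold no mean signal), filter, probe choice, prior, model and each pair left out. Figures used matplotlib 3.10.9.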

Additional observations from a re-analysis of the deposited data

Results flagged for a closer look

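Over 24 named genes and 43 list medians, 1 pair stood far from the other 3 in 3 of 67 cases (4.48%). The cut-off is one that about 1 in 20 independent cases would pass. The genes were picked for pairs of the same direction, and the lists share genes and arrays. The rate of 1 in 20 is therefore no yardstick here. Mr1 differed by 0.35 in WT marrow and by 0.89 to 0.96 in the other pairs, one of which (STAT6-/- marrow) rests on a control array not above background. The endoplasmic reticulum stress list had a relative median of 0.12 in STAT6-/- marrow and of -0.184 to -0.138 elsewhere. The class II presentation list stood at 0.417 in STAT6-/- spleen and at -0.440 to -0.375 elsewhere.

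In 6 of 43 lists the pairs of 1 tissue or genotype went one way and those of the other the opposite way. This difference was not tested. With so few pairs, random signs would often split in these ways too, and the lists share genes and arrays. The count of 6 is therefore not more than random signs could give, and the lists below are described only. Between tissues (mean of the relative medians in spleen minus marrow), the B cell list differed by 0.876, the plasma cell list by 0.693 and the list of targeted genes and CD11b by -0.33. Between genotypes (STAT6-/- minus WT), the natural killer cell list differed by 0.724, the T cell list by 0.465 and the fatty acid synthesis list by 0.256. Single pairs in these lists lay as close to 0 as 0.030 for plasma cells in STAT6-/- spleen and -0.045 for fatty acid synthesis in WT spleen.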

How the results depend on the processing

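No feature passed over the 4 pairs in any of 15 other settings, with 58 to 1249 features at an unadjusted p under 0.05 against 792. An intensity trend with a robust prior called 1 feature for diet in STAT6-/- and 2 for diet by genotype (Ccl24, adjusted p = 0.0449, and Wfdc17, 0.0448, by limma). With 1 pair left out, calls ran from 0 to 146 in spleen, 0 to 135 in marrow and 0 to 107 between tissues, the highest counts without the STAT6-/- spleen pair (146, 135 and 107) and with 9, 135 and 8 without the WT spleen pair. Those fits have 1 residual degree of freedom, from the tissue that keeps both its pairs, and assume the lone pair of the other tissue to vary alike. Unadjusted counts ran over 214 to 2519 features in spleen, 255 to 1543 in marrow, 157 to 1959 between tissues, 778 to 3082 in WT, 782 to 2123 in STAT6-/- and 1037 to 3255 between genotypes. Of 1908 values of named genes, 7 changed sign: with quantile normalization Ltf became 0.114 and Rps2 0.025, and with normexp Camp 0.043, Gapdh 0.009, Klf2 0.01, Ltf 0.127 and Rps2 0.013. The cause was not tested. Sizes depended most on the background: with normexp 82 of 141 values (58.2%) were smaller by over 1.5 times or changed sign, such as Dpysl4 (1.40 to 0.27) and Bmp4 (-0.79 to -0.45), and with quantile normalization 27 (19.1%). Leaving out 1 pair did so for 5 to 9 values. Of the 52 interferon genes 18, 14 and 18 were lower in 4 of 4 pairs under quantile, median and normexp scaling, settings chosen for this count after seeing the data. Over all 27872 features 1343, 897 and 1479 were lower in 4 of 4 pairs in the same order of settings. Signal over background limits the dim genes, since 5222 features were above background on neither STAT6-/- marrow array.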

Other observations

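Scavenger receptor genes, which take up modified lipoproteins and dead cells, ran opposite ways in the 2 spleen pairs, with a relative median of -0.390 in WT and 0.842 in STAT6-/-. Msr1, the class A scavenger receptor, went from -0.95 to -3.72 in WT spleen and from -3.88 to -2.62 in STAT6-/- spleen, so that the order of the diets was turned around. In marrow it went from -2.44 to -1.96 in WT and from -2.03 to -2.66 in STAT6-/-. Lrp1, a large endocytic receptor of the LDL receptor family, differed by -1.35 and 1.79 in WT and STAT6-/- spleen, and by 0.77 and -0.64 in marrow. None of these differences passed the test between genotypes.

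Hdc, which makes histamine, was lower on HFD in every pair, at 5.19 and 4.26 in WT spleen, 4.54 and 4.02 in STAT6-/- spleen, 5.75 and 5.62 in WT marrow, and 5.73 and 5.57 in STAT6-/- marrow (mean -0.43, SE 0.21; limma adjusted p = 1). Cpa3, a protease of mast cell granules, differed by -0.37, 0.24, -0.84 and -0.29 in the same order of pairs. The cytotoxic granule protease Gzmb differed by -0.66 and -0.77 in the WT pairs and 0.51 and 0.56 in the STAT6-/- pairs, and Gzma by -0.33 and -0.39 against 0.80 and 0.98. The difference between genotypes did not pass for either gene (limma adjusted p = 0.712). The platelet chemokine Pf4 differed by 1.59 in WT spleen and 0.57 in STAT6-/- marrow, and by -1.95 and -0.79 in STAT6-/- spleen and WT marrow.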
